A study of Mus musculus with 4 samples.

Results

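The mitosis genes are 38 genes whose products drive a cell through division, chosen by gene symbol among the 32757 RefSeq transcript IDs (23732 symbols) counted in RNA sequencing of imMDFs, immortalized fibroblasts from mouse dermis. The list holds cyclins, CDK1 and its CDC25 activators, mitotic kinases, the chromosomal passenger complex, the spindle checkpoint, activators and substrates of the anaphase-promoting complex, centromere and kinetochore proteins, motor proteins, cytokinesis factors and proteins of mitotic chromosomes. All 38 were found, and where a gene had several IDs, the ID with the most reads stood for it. *Tmpo* KO imMDFs (Lap2alpha -/-) were set against *Tmpo* WT imMDFs (Lap2alpha +/+), neither of which received a treatment. Each genotype had 2 libraries of total RNA depleted of rRNA, replicate 1 from passage 34 and replicate 2 from passage 42. A single line of each genotype is named, and the knockout cannot be told apart from anything else in which the lines differ. Apart from the passage, no source tells whether replicates were separate cultures, so p-values here reflect library-to-library spread alone. In the main comparison of genotypes this spread includes the difference between passages, and the rest of it is possibly technical.

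Mitosis begins when cyclin B with CDK1 phosphorylates many proteins at once, and it ends when the anaphase-promoting complex (APC/C), a ubiquitin ligase, has cyclin B and securin degraded. The genes of this programme are transcribed together late in the cell cycle, through CCAAT boxes bound by NF-Y and cell cycle homology regions (CHR) bound by the MuvB complex with MYBL2 and FOXM1, and their RNA is commonly used as a gauge of how many cells of a culture divide. *Tmpo* encodes LAP2alpha, a partner of lamin A/C in the nuclear interior that also binds the retinoblastoma protein, a brake on the cell cycle. In bulk RNA, fewer cells in division and less RNA per dividing cell cannot be told apart.

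The promoters of the mitosis genes are shown first, because the letters that such genes share were not used to choose the list. Of the 38 genes, 31 were matched to a RefSeq promoter of GRCm38.p6, which spans 250 bases before to 50 bases after the start. CCAAT, on either strand, occurred in 24 of the 31 (77.4%), against 37.9% of all 27025 promoters of the same length, and 17 of the mitosis promoters held at least 2 copies. The CHR letters TTTGAA, on either strand, occurred in 23 (74.2%), against 18.1% of all promoters, and the variant TTTAAA in 9 (29.0%), against 13.2%. Either CHR form occurred in 26 (83.9%), against 27.8% of all promoters, and 22 (71.0%) held CCAAT together with a CHR form, against 10.9% of all. *Mad2l1*, *Pttg1* and *Nuf2* held none of these letters in this window. A base could belong to matches of both kinds. A match is a string of letters and was not measured as a bound site. The 160 bases before the start are printed for some genes of mitotic entry, exit, the spindle and mitotic chromosomes. All the genes printed are among the 22 with CCAAT and a CHR form, and they do not stand for the 31. The CCAAT and CHR letters are in capitals on whichever strand they lie, so that a CCAAT box of the other strand reads as ATTGG. The first CHR form reads as TTCAAA when it lies on the other strand, and the variant reads the same on both.
*Ccnb2* (chr9:70421555-70421714, minus strand): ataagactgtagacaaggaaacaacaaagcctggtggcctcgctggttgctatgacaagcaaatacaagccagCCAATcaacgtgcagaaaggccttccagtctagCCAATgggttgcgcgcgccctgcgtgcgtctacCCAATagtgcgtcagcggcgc
*Ccnb1* (chr13:100786487-100786646, minus strand): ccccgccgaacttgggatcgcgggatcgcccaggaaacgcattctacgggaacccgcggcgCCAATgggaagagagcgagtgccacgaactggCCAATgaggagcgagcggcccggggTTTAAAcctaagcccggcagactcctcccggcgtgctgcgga
*Cdk1* (chr10:69352913-69353072, minus strand): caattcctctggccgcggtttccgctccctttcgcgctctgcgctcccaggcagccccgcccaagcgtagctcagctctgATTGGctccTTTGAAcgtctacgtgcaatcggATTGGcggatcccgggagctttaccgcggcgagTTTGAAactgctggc
*Cdc20* (chr4:118437344-118437503, minus strand): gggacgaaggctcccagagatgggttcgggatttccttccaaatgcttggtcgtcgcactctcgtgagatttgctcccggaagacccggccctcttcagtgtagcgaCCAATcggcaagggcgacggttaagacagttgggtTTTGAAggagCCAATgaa
*Kif11* (chr19:37376222-37376381, plus strand): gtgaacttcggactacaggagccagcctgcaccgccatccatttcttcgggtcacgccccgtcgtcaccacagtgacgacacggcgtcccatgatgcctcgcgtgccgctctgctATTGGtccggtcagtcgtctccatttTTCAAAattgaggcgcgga
*Top2a* (chr11:99024190-99024349, minus strand): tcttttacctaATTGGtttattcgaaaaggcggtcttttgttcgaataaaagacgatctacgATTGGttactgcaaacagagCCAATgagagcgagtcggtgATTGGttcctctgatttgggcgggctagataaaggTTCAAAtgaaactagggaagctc

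Of these 6 stretches, that of *Ccnb2* holds 3 CCAAT copies, and its TTTGAA matches lie on either side of the printed bases. *Cdc20*, *Cdk1*, *Kif11* and *Top2a* hold CCAAT and the TTTGAA form, and *Ccnb1* holds CCAAT and the TTTAAA form.

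The 4 libraries held between 12168433 and 19603812 reads given to transcripts, which were 31.4% to 36.7% of the reads in the files. The targeted gene followed the labels. *Tmpo* transcript NM_011605 had 6 and 6 counts in the KO libraries, against 903 and 1324 in the WT libraries. The only other *Tmpo* ID with reads, NM_001283048, had 12 and 19 counts in KO and 9 and 16 counts in WT libraries. Of 11 fibroblast markers, 10 had enough counts to be tested, and their summed level was 12016 and 16268 CPM (reads as a share of the library, scaled by TMM) in KO and 14627 and 13267 CPM in WT imMDFs. *Pdgfrb*, which has several IDs, was listed at 0. *Thy1*, a fibroblast surface protein, was the 1 fibroblast marker that passed the test, with a log2 fold change of 1.80 (adjusted p = 0.0047). The 26 markers of keratinocytes, endothelial cells, leukocytes and pigment cells summed to 77.9 and 58.0 CPM in KO and 61.7 and 67.7 CPM in WT imMDFs, and 0 of the 13 with enough counts passed the test.

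The counts decided which mitosis genes could be measured. Reads were counted per RefSeq transcript, and a read in an exon shared by several transcripts was set aside as ambiguous. All 26 mitosis genes with 1 ID were tested, with 538 to 29030 counts per library. Of the 12 with several IDs, 3 were tested (*Birc5*, *Kif2c* and *Pttg1*), and the counts of the 12, summed over all IDs and libraries, had a median of 36, against 11226.5 for the genes with 1 ID. Across all symbols, 29.5% of those with several IDs and 63.0% of those with 1 ID were tested. The other 9, *Cdc25b*, *Aurka*, *Tpx2*, *Bub1*, *Ttk*, *Spc25*, *Kif20a*, *Prc1* and *Ect2*, gave no usable value. *Tpx2*, *Bub1* and *Prc1* were listed at 0 under every ID in every library, which cannot be read as a lack of expression. *Ect2*, a guanine nucleotide exchange factor that starts cytokinesis, had 0 and 18 counts in KO and 5 and 4 counts in WT libraries. *Pttg1* passed the filter, at least 1 CPM in both libraries of a genotype, in KO as well as WT, but with only 16 to 34 counts per library.

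**Figure D1:**
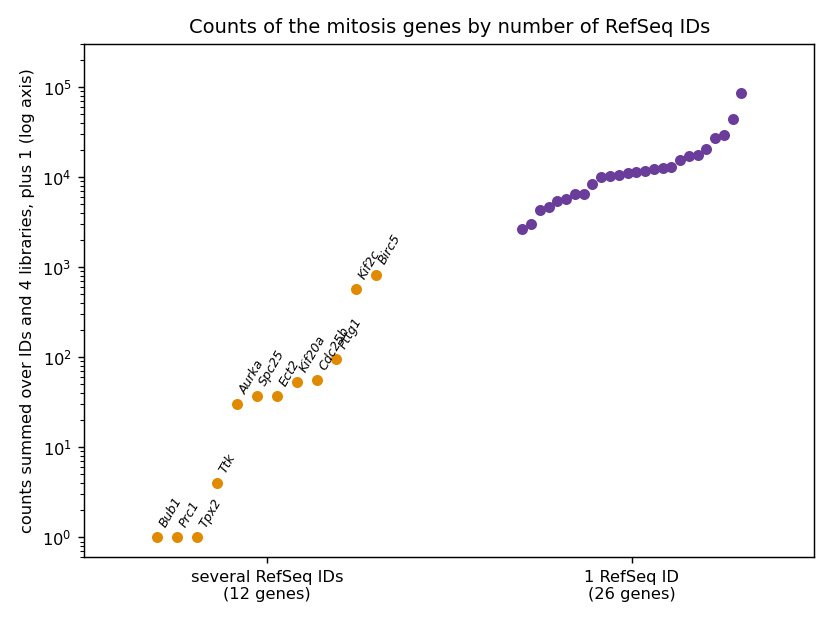
Counts of each of the 38 mitosis genes, summed over its IDs and the 4 libraries and increased by 1 for the log axis, for the 12 genes with several RefSeq IDs (left) and the 26 with 1 ID (right). Each point is a gene, and the groups do not overlap: the highest gene with several IDs, *Birc5*, has 826 counts and the lowest with 1 ID has 2659.

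The question put to these genes was whether cells without LAP2alpha carry another level of mitotic RNA. Of the 29 tested mitosis genes, 0 passed the test between *Tmpo* KO and WT imMDFs (edgeR's quasi-likelihood test with Benjamini-Hochberg adjustment over 13855 transcripts, adjusted p under 0.05), and the smallest adjusted p was 0.303. Of all tested transcripts, 2.75% passed, with 209 (1.51%) higher and 172 (1.24%) lower in KO. At an unadjusted p under 0.05, 1 mitosis gene passed (*Kif11*), which is 3.45%, against 12.8% of all transcripts. DESeq2 also called 0 of the 29. With the passage as a block, 0 of the 29 passed, against 1092 (7.88%) of all transcripts. The fitted log2 fold changes lay between −0.50 and 0.28 with a median of −0.068, against 0.016 over all transcripts. Of the 29, 19 were negative and 10 positive, against 6699 negative and 7156 positive of all transcripts. All 38 genes summed to 5795 and 6675 CPM in KO and 6704 and 6841 CPM in WT imMDFs, so the KO library of passage 34 was the lowest of the 4.

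These values also bound what could have been missed. The 95% interval of the fold change stayed within 1 log2 unit of 0, a doubling or halving, for 27 of the 29 mitosis genes (93.1%), against 52.3% of all transcripts. *Birc5* and *Pttg1*, which have few counts, were outside it. The median standard error was 0.207 log2 units, against 0.311 over all transcripts. Genotypes did not overlap for 10 of the 29 genes (34.5%), 3 with both KO libraries above both WT libraries (*Cdca8*, *Cdc20* and *Anln*) and 7 with both below (*Ccnb1*, *Cdk1*, *Ube2c*, *Ndc80*, *Kif11*, *Kif4* and *Top2a*), against 41.9% of all transcripts.

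**Figure D2:**
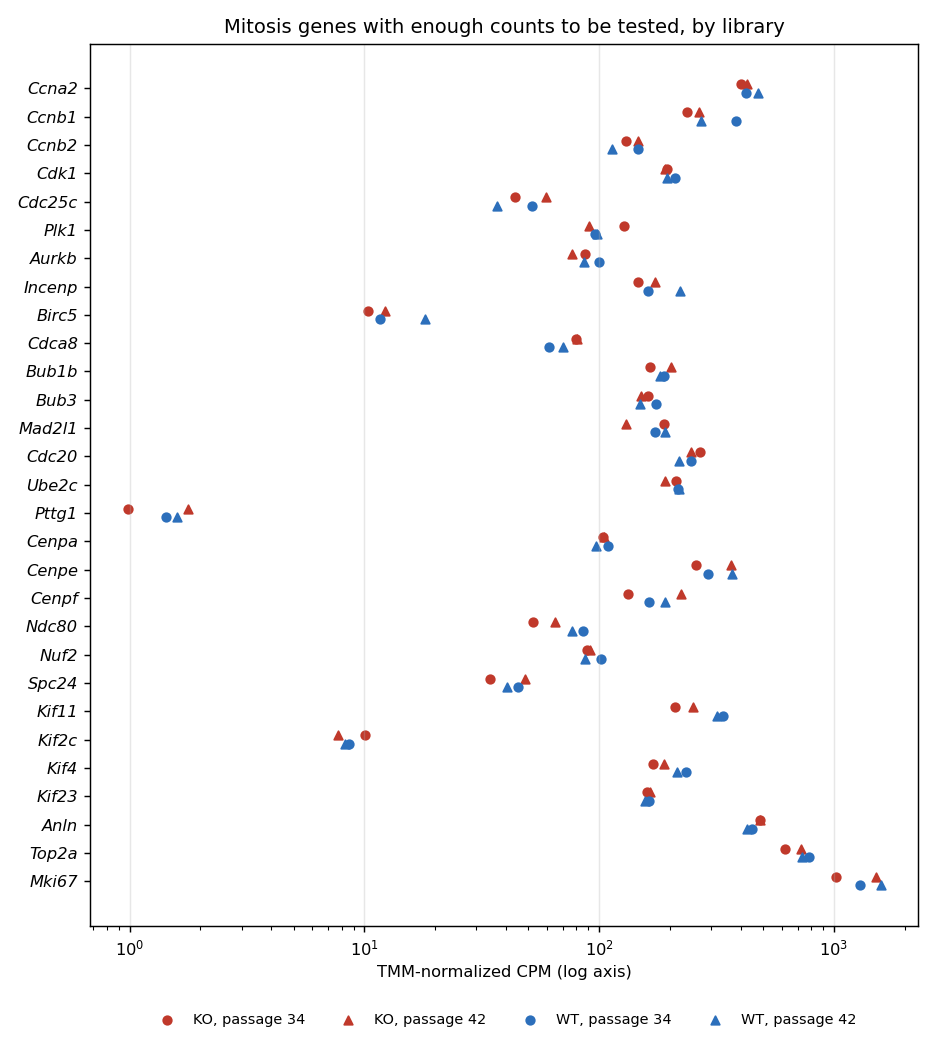
Normalized CPM (log axis) of the 29 tested mitosis genes in each library: KO in red, WT in blue, circles for passage 34 and triangles for passage 42. Points of both genotypes lie close together in most rows, and CPM is not divided by transcript length, so rows are not compared with each other.

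Among the genes of mitotic entry, *Ccnb1* encodes cyclin B1, the partner that activates CDK1. It had 237 and 267 CPM in KO libraries, against 382 and 272 CPM in WT libraries (passages 34 and 42, the order used throughout for the 2 libraries of a genotype). Both KO libraries were lower, but the WT library of passage 42 was close to them, and the log2 fold change was −0.38 ± 0.22 (SE, 95% interval −0.86 to 0.11, adjusted p = 0.57). *Cdc25c*, the phosphatase that removes the inhibitory phosphates of CDK1, had 43.6 and 59.2 CPM in KO libraries, against 51.8 and 36.7 CPM in WT libraries. The genotypes overlapped, with a log2 fold change of 0.22 ± 0.25 (−0.34 to 0.78, adjusted p = 0.83). *Cdk1* itself was among the steadiest, at 194 and 192 CPM in KO and 210 and 194 CPM in WT libraries. The cyclins *Ccna2* and *Ccnb2* had log2 fold changes of −0.12 and 0.090. *Plk1*, a kinase of mitotic entry and spindle assembly, had 127 and 91.0 CPM in KO libraries, against 95.8 and 97.9 CPM in WT libraries, and its KO libraries lay on either side of the WT libraries (log2 fold change 0.17 ± 0.22, −0.31 to 0.65, adjusted p = 0.85).

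All 4 members of the chromosomal passenger complex, which corrects wrong attachments of chromosomes to the spindle, were tested. *Birc5*, which encodes survivin, had 10.4 and 12.2 CPM in KO libraries, against 11.7 and 18.1 CPM in WT libraries. These reads belong to 1 of its 2 IDs. The other was listed at 0 in every library, so the values are not the level of the whole gene. The genotypes overlapped for *Birc5*, and with 139 to 284 counts per library its log2 fold change of −0.41 ± 0.31 had a wide interval (−1.10 to 0.29, adjusted p = 0.71). *Cdca8*, which encodes borealin, had 79.9 and 80.1 CPM in KO libraries, against 61.3 and 70.2 CPM in WT libraries. Both KO libraries were higher, and its log2 fold change, 0.28 ± 0.20, was the highest of the 29 (−0.16 to 0.73, adjusted p = 0.67). *Aurkb*, the kinase of the complex, and *Incenp*, its scaffold, had log2 fold changes of −0.18 and −0.26. The 4 subunits of 1 complex thus had fitted values on both sides of 0, none past the test.

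The spindle checkpoint holds back anaphase until every chromosome is attached. *Bub1b*, which encodes the checkpoint protein BUBR1, had 165 and 202 CPM in KO libraries, against 189 and 181 CPM in WT libraries, with a log2 fold change of −0.010 ± 0.20 (−0.45 to 0.43, adjusted p = 0.997). *Mad2l1*, which encodes the CDC20 inhibitor MAD2, had 188 and 130 CPM in KO libraries, against 172 and 190 CPM in WT libraries. The KO library of passage 42 was the lowest of the 4, and the log2 fold change was −0.19 ± 0.22 (−0.68 to 0.30, adjusted p = 0.84). *Bub3* had a log2 fold change of −0.043.

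Of the genes that act with the APC/C, *Cdc20*, its mitotic activator, had 269 and 247 CPM in KO libraries, against 247 and 218 CPM in WT libraries. The lower KO library was barely above the higher WT library, and the log2 fold change was 0.15 ± 0.20 (−0.28 to 0.59, adjusted p = 0.86). *Pttg1*, which encodes securin, the inhibitor of separase, had 16 and 34 counts in KO libraries, against 17 and 25 counts in WT libraries, and at this depth a difference was not detectable (log2 fold change −0.13 ± 0.45, −1.11 to 0.85, adjusted p = 0.96). *Ube2c*, the ubiquitin-conjugating enzyme of the APC/C, had a log2 fold change of −0.11.

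At centromeres and kinetochores, where spindle fibres attach, *Ndc80*, which encodes a microtubule-binding subunit of the NDC80 complex, had 52.1 and 65.1 CPM in KO libraries, against 85.2 and 76.7 CPM in WT libraries. Both KO libraries were lower, and the log2 fold change was −0.47 ± 0.21 (−0.93 to 0.0011, adjusted p = 0.39). The partners of *Ndc80* in the same complex, *Nuf2* and *Spc24*, had log2 fold changes of −0.068 and −0.059, and *Spc25* was not tested. *Cenpa*, the histone H3 variant that marks centromeres, had 104 and 105 CPM in KO libraries, against 109 and 97.1 CPM in WT libraries, and was near 0 (0.019 ± 0.19, −0.41 to 0.45, adjusted p = 0.99). *Cenpe*, a kinetochore kinesin, and *Cenpf*, a large kinetochore protein, had log2 fold changes of −0.075 and 0.010.

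The spindle kinesins held the lowest fitted value of all 29. *Kif11*, which encodes the kinesin that pushes spindle poles apart, had 211 and 252 CPM in KO libraries, against 338 and 318 CPM in WT libraries. Both KO libraries were lower, by a log2 fold change of −0.50 ± 0.20 whose interval (−0.94 to −0.059) did not reach 0, but with edgeR's quasi-likelihood test its p of 0.030 became 0.303 after Benjamini-Hochberg adjustment. *Kif2c*, which encodes a microtubule depolymerase, had 10.1 and 7.69 CPM in KO libraries, against 8.59 and 8.30 CPM in WT libraries, and its genotypes overlapped (0.074 ± 0.32, −0.63 to 0.78, adjusted p = 0.97). These *Kif2c* reads belong to 1 of its 2 IDs, so the values are not the level of the whole gene. The other ID had 2 and 7 counts in KO and 6 and 12 counts in WT libraries. *Kif4*, a chromosome-bound kinesin, had 170 and 190 CPM in KO libraries, against 234 and 215 CPM in WT libraries (−0.32 ± 0.20, adjusted p = 0.58).

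Of the cytokinesis genes, *Kif23*, a kinesin of the central spindle, had 160 and 164 CPM in KO libraries, against 163 and 157 CPM in WT libraries, and the genotypes overlapped (0.018 ± 0.19, −0.40 to 0.44, adjusted p = 0.99). *Anln*, which encodes the contractile ring scaffold anillin, had 483 and 484 CPM in KO libraries, against 448 and 425 CPM in WT libraries, so both KO libraries were higher by a small margin (0.15 ± 0.20, −0.29 to 0.58, adjusted p = 0.87). Of the proteins of mitotic chromosomes, *Top2a*, which encodes the enzyme that untangles sister chromatids, had 617 and 724 CPM in KO libraries, against 784 and 728 CPM in WT libraries (−0.17 ± 0.21, −0.64 to 0.29, adjusted p = 0.84). *Mki67*, which encodes the proliferation marker Ki-67, had 1016 and 1508 CPM in KO libraries, against 1287 and 1584 CPM in WT libraries. Its values separated by passage more than by genotype (−0.19 ± 0.26, −0.75 to 0.38, adjusted p = 0.87).

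**Figure D3:**
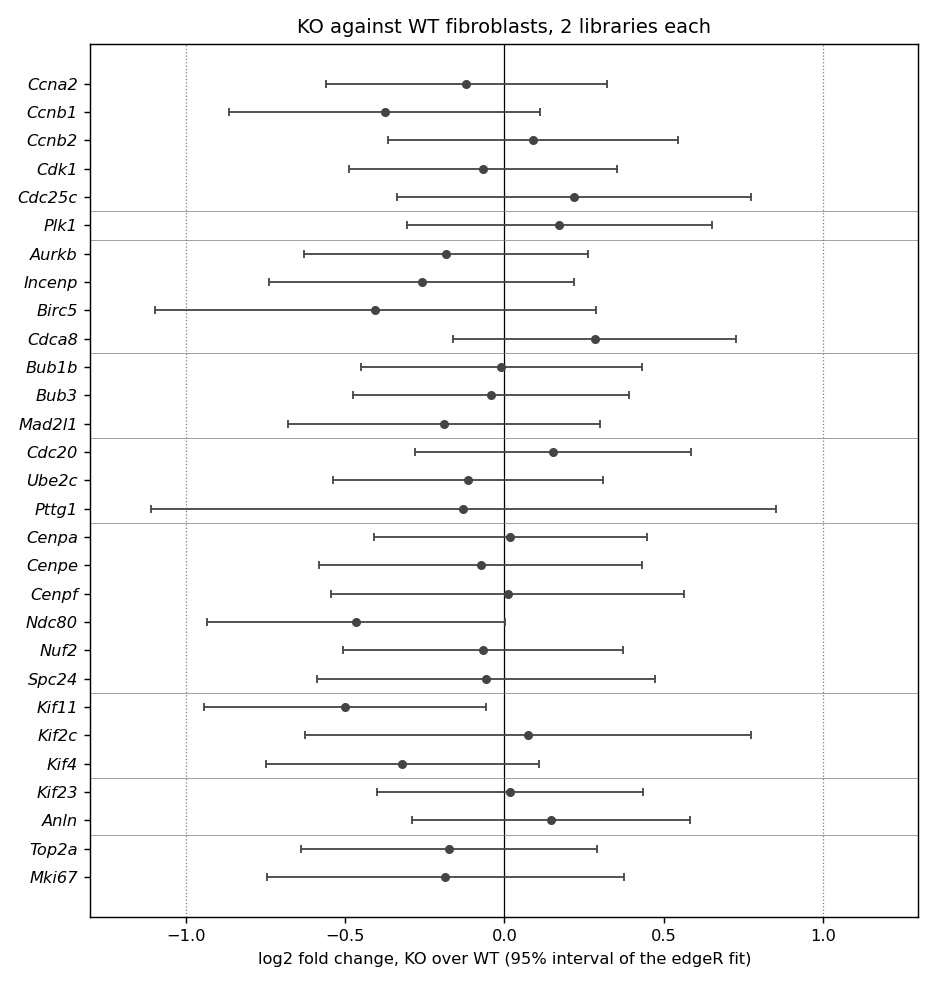
Fitted log2 fold change of each tested mitosis gene, KO over WT, with its 95% interval from edgeR, ordered by role. The interval of *Kif11* alone stays on one side of 0, from −0.94 to −0.059, and those of *Birc5* and *Pttg1* alone reach past 1 log2 unit.

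Of the 38 genes, 12 overlap another gene on the other strand in the NCBIM37 annotation, 8 of them tested, among them *Cdc25c*, *Cdca8*, *Cdc20*, *Kif4* and *Top2a*. Whether the counting used strand was not given in the sources used here, and reads in such an overlap may belong to either gene.

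Set side by side by passage, with 1 library per genotype and so no test, the mitosis genes differed between genotypes in other ways at the 2 passages. At passage 42, the log2 difference of KO and WT had a median of −0.0087 (−0.57 to 0.69), with 16 genes lower and 13 higher in KO. At passage 34, the median was −0.16 (−0.71 to 0.41), with 23 lower and 6 higher in KO. The medians and sign counts of all transcripts within each passage are not given here. These counts are therefore not read as a trait of the mitosis genes. Counting error alone, given as a 95% binomial interval, did not span 0 for 20 of the 29 genes at passage 42, against 51.1% of all transcripts, and for 23 at passage 34, against 54.1%. The signs at the 2 passages differed for 13 of the 29 genes, against 40.4% of all transcripts, and for 7 of these (24.1%) both differences exceeded counting error, against 9.32% of all transcripts, most of which have fewer counts. Counting error says nothing of the spread between cultures.

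The position of a mitosis gene went with its fold change. Each fold change was set beside the median of the other tested transcripts of the same chromosome, and over the 29 genes Pearson's r was 0.777 and Spearman's rho 0.775. Without *Cdc25c* and *Ccnb1*, the genes farthest out on the chromosome axis, r was 0.746 and rho 0.733 (n = 27). In single passages the relation was weaker at passage 34, with r of 0.719 and rho of 0.752 at passage 42 and r of 0.513 and rho of 0.326 at passage 34. Over 168 other genes of mitosis and replication r was 0.541, and over 13515 other transcripts it was 0.261. The mitosis genes were measured more precisely, with a median standard error of 0.207 log2 units against 0.311 over all tested transcripts. The part of precision in these r values was not tested. Genes of a chromosome share 1 median and all genes share the same 4 libraries, so these are descriptions and not tests.

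The chromosomes were split by bounds chosen after the values were seen. Of the chromosomes that carry tested mitosis genes, 4 had a median under −0.1 (13, 17, 19 and X), and all 5 of their mitosis genes had negative fold changes, from −0.50 to −0.26. They are, by mm9 coordinates, *Kif11* (chr19:37450893-37496349, plus strand), *Incenp* (chr19:9946787-9974023, minus strand), *Ndc80* (chr17:71845440-71876197, minus strand), *Ccnb1* (chr13:101548605-101556525, minus strand) and *Kif4* (chrX:97821076-97922553, plus strand). The medians of these chromosomes were −0.21 on 13, −0.15 on 19 and −0.14 on 17 and X. On the 5 such chromosomes with a median over 0.05, 8 of 12 mitosis genes were positive and 4 negative, and between these bounds 2 of 12 were positive and 10 negative. Each of the 5 genes was lower than the median of its chromosome, and the part of a chromosome-wide difference in their values was not tested. Chromosomes 12 and 18 stood highest, at 0.45 and 0.35, and of the tested mitosis genes only *Cdc25c* lies on either.

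**Figure D4:**
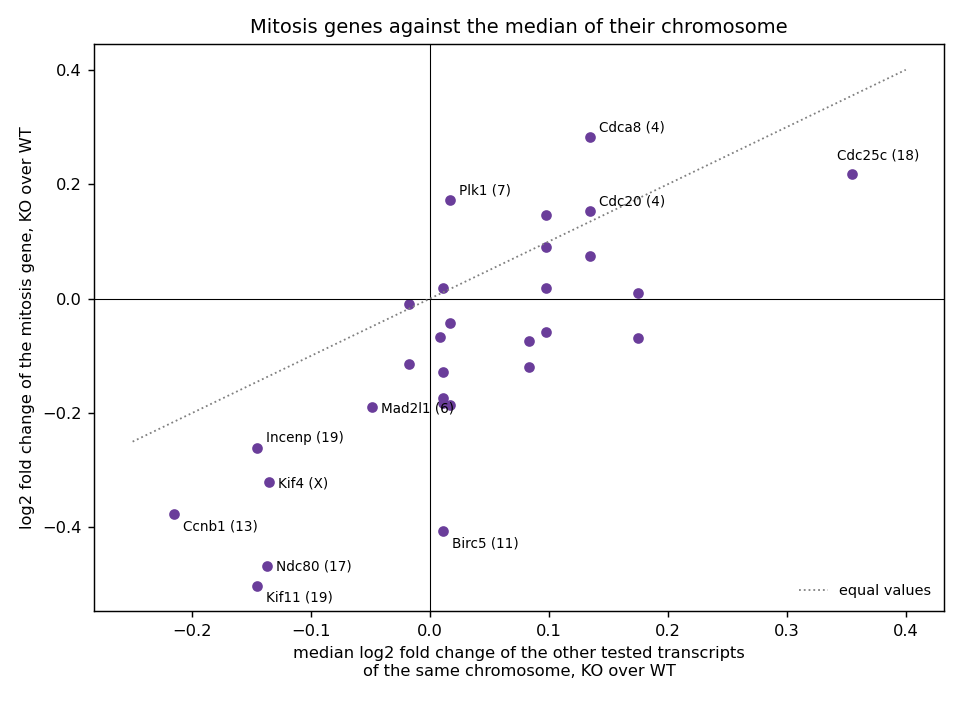
Fitted log2 fold change of each tested mitosis gene (KO over WT) against the median of the other tested transcripts of its chromosome, named in parentheses for some genes; the dotted line marks equal values. The 5 genes at the left, on chromosomes 13, 17, 19 and X, all lie below 0.

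Passage 42 was set against passage 34 over both genotypes, with genotype as a term in the fit. None of the 29 genes passed, 0 by edgeR's quasi-likelihood test with Benjamini-Hochberg adjustment (smallest adjusted p 0.155) and 0 by DESeq2. Of all transcripts, 2.31% passed, with 245 (1.77%) higher and 75 (0.541%) lower at passage 42. At an unadjusted p under 0.05, 3 mitosis genes passed (10.3%), against 11.6% of all transcripts, and all 3 were higher at passage 42. Passages did not overlap for 10 genes, 7 higher and 3 lower at passage 42, against 33.8% of all transcripts, and the interval lay within 1 log2 unit of 0 for 27 genes, against 61.9% of all transcripts.

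*Cenpf* had 223 CPM in KO and 191 CPM in WT imMDFs at passage 42, against 133 CPM in KO and 163 CPM in WT imMDFs at passage 34, with a log2 fold change of 0.49 ± 0.18 (0.14 to 0.85, adjusted p = 0.155). *Cenpe* had 364 CPM in KO and 366 CPM in WT imMDFs at passage 42, against 259 CPM and 290 CPM at passage 34 (0.41 ± 0.18, adjusted p = 0.29). *Mki67* had a log2 fold change of 0.43 ± 0.20 (adjusted p = 0.33). In each of the 3 genes both passage 42 libraries were above both passage 34 libraries.

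These are also the 3 longest mitosis transcripts tested, at 11137 bases for *Cenpf*, 10075 for *Mki67* and 7813 for *Cenpe*, by the longest annotated coding transcript. Over all tested transcripts with a length, the median log2 fold change of passage 42 over 34 was −0.10 up to 2000 bases, −0.020 up to 4000, 0.087 up to 6000, 0.17 up to 8000 and 0.33 beyond. The correlation of log2 length and passage difference was r = 0.520 and rho = 0.394 over the 29 genes, and r = 0.218 and rho = 0.256 over 11324 transcripts. The part of transcript length in the values of *Cenpf*, *Cenpe* and *Mki67* was not tested. For the fold change between genotypes, r with length over the same transcripts was −0.0031.

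**Figure D5:**
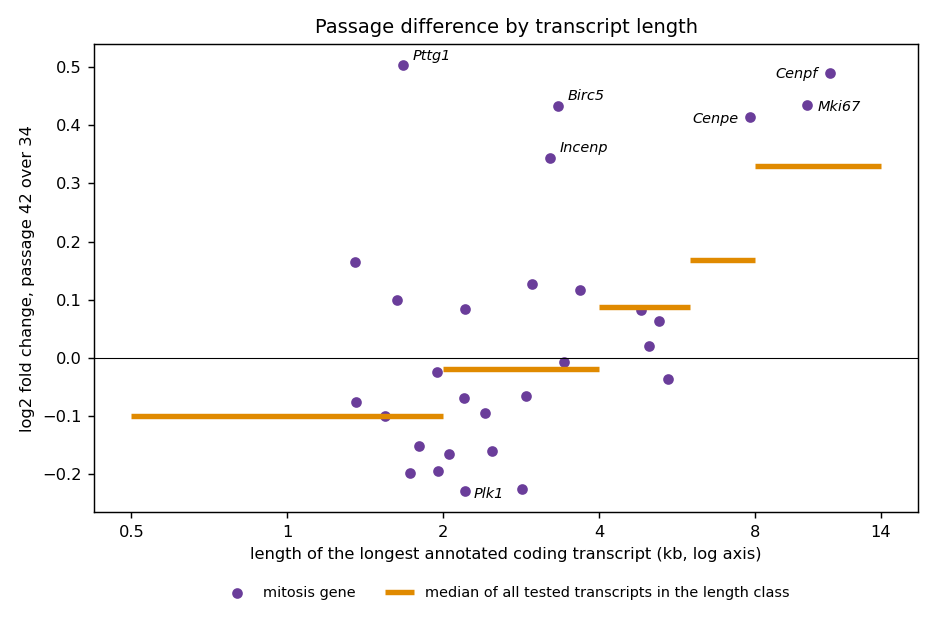
Log2 fold change of passage 42 over passage 34 for each tested mitosis gene (points) by the length of its longest annotated coding transcript (kb, log axis), with the median of all tested transcripts in 5 length classes (bars). *Cenpe*, *Mki67* and *Cenpf* stand at the right, and the class medians run from −0.10 up to 0.33.

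Genes around the mitosis list were read from 8 further lists with 201 genes, 168 of them tested. Of these, 0 were higher and 2 lower in KO imMDFs by the same test (1.19%, against 2.75% of all transcripts). The median log2 fold change was −0.066, and 110 were negative and 58 positive, against 6699 negative and 7156 positive of all transcripts. Counts of negative values, here and in the single lists, were not tested. *Myh9*, the non-muscle myosin heavy chain that contracts in cytokinesis and in many other movements of the cell, fell to 1294 and 919 CPM in KO libraries, against 2429 and 2516 CPM in WT libraries (log2 fold change −1.16, adjusted p = 0.031). *Gins2*, a subunit of the replicative helicase, fell to 48.0 and 40.1 CPM in KO libraries, against 91.2 and 81.8 CPM in WT libraries (−0.97, adjusted p = 0.034). Neither call held when either WT library was left out, and calls over all transcripts also fell in those settings. Among the genes with the smallest p in these lists were also *Shcbp1* (−0.76) and *Vps4a* (−0.54) in cytokinesis and *Pola1* (−0.48) in replication, none past the test. With the passage as a block, 2 cytokinesis genes (*Myh9* and *Shcbp1*, adjusted p = 0.0053 for *Shcbp1*) and 2 replication genes passed.

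The other lists had 0 genes past the test between genotypes without a block. With the passage as a block, *Esco2* was lower in KO (adjusted p = 0.016), 1 centromere or kinetochore gene was higher, and the remaining lists had 0. Condensin and cohesin genes, which fold chromosomes and hold sister chromatids together, had 17 of 21 negative values, led by *Esco2*, the cohesin acetyltransferase, at 36.0 and 40.3 CPM in KO and 63.8 and 63.9 CPM in WT libraries (−0.74, adjusted p = 0.11), then *Cdca5* (−0.47) and *Smc3* (−0.43). Of 33 other centromere and kinetochore genes, 18 were negative, and among those with the smallest p were *Cenpi* (−0.49) and *Cenpq* (−0.47). Of 28 other spindle and kinesin genes, 19 were negative, led by *Rcc1* (−1.16, under 2 CPM in every library), *Kif15* (−0.47) and *Ckap2* (−0.45). The list of MuvB, FOXM1 and MYBL2 regulators had 9 of 11 negative values, with *Tfdp1* at −0.40, *Lin9* at −0.45 and *Foxm1* at −0.30. The 9 include *E2f1* at −5.8e-05, and the 2 positive values were *Lin52* at 0.35 and *E2f4* at 0.30. For *Foxm1* the genotypes overlapped, at 237 and 212 CPM in KO and 230 and 323 CPM in WT libraries. This list also holds E2F factors and genes of the retinoblastoma family, so it is not a list of activators alone. The APC/C had 11 of 14 negative values, with *Anapc10* at −0.46, *Cdc26* at 0.38 and *Cdc23* at 0.32. Other regulators of mitotic entry had 7 of 15 negative values, with *Nek9* at 0.46, *Haspin* at 0.44 and *Pbk* at −0.34. Between passages, 1 of the 168 genes passed, *Arhgef2*, an exchange factor of RhoA, at 17.3 CPM in KO and 14.5 CPM in WT imMDFs at passage 42, against 7.58 CPM and 6.91 CPM at passage 34 (1.13, adjusted p = 0.025).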

How the data were processed

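RNA sequencing measured 4 libraries, 2 per genotype. The deposited files hold raw counts per RefSeq transcript, for which the authors removed adapters with cutadapt, mapped reads with TopHat2 (version 2.0.9, build mm9) and ran htseq-count. Reads in no feature (49.9% to 56.5%) and ambiguous reads (12.1% to 13.4%) stayed out of library sizes and tests.

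Symbols came from RefSeq (GRCm38.p6) for 32308 of 32757 IDs, and positions and lengths from an NCBIM37 annotation. A transcript entered the test when both replicates of a genotype had 1 CPM or more, and was tested with edgeR 4.0.16 in R 4.3.3 (TMM, quasi-likelihood F-test, Benjamini-Hochberg over all tested transcripts). Printed CPM values use TMM-scaled library sizes, while the filter used unscaled ones. Standard errors came from the fold change and the test statistic. The genotype fit had no other term, and the passage fit had genotype as a term. By the labels, libraries with the same replicate number share a passage, and their deviations from the genotype means correlated at 0.175 over the tested transcripts. Within-passage differences used a prior count of 2. Intervals for counting cover counting error only. Replicates of a genotype differed beyond sampling noise (chi-square per degree of freedom 50.7 in KO and 29.3 in WT). The procedure was run on simulated counts with the same spread for every transcript and, for the genotype comparison, no passage difference. That setting is simpler than these data, so it does not give the error rates here. Python 3.11.15 with pandas 2.3.3 and matplotlib 3.10.9 made tables and plots.

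The members and lists were chosen with earlier results of these data known. Values in every library are given for the tested members with the highest and lowest fold change in each role group, for any with an unadjusted p under 0.05, and for some others chosen after their values were seen. In other lists, genes called and up to 3 with the smallest p are named, except for some that are not reported here.

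Alternatives tried were library totals, RLE size factors, DESeq2 1.42.0, the likelihood ratio test, no filter, 1 CPM in all 4 libraries, counts summed per symbol, a replicate block, no term for genotype, and each library left out. The ChIP sequencing was not analysed here.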

Additional observations from a re-analysis of the deposited data

Results flagged for a closer look

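Of the tested mitosis genes, 7 (24.1%) had differences between KO and WT imMDFs with opposite signs at the 2 passages, each beyond counting error. The share over all transcripts, most of which have fewer counts, was 9.32%, and counting error leaves out the spread between cultures. With 1 library per genotype and passage, the difference between passages was not tested. In 5 of the 7 genes KO was higher at passage 42 and lower at passage 34, and in 2 (*Plk1* and *Mad2l1*) the reverse. *Cdc25c* had a log2 difference of KO and WT of 0.69 at passage 42 and −0.25 at passage 34, which differ by 0.93. The same differences were 0.24 and −0.40 for *Spc24* (apart by 0.64), 0.23 and −0.29 for *Cenpf* (apart by 0.52) and 0.36 and −0.16 for *Ccnb2* (apart by 0.52). *Bub1b* had 0.16 at passage 42 and −0.20 at passage 34, apart by 0.36. *Mad2l1* had −0.55 at passage 42 and 0.13 at passage 34, a change of −0.68. *Plk1* had −0.11 at passage 42 and 0.41 at passage 34, a change of −0.52.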

How the results depend on the processing

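In both comparisons 0 mitosis genes were called under every alternative listed, and the smallest adjusted p of a named gene over the alternatives was 0.062 (*Kif11* with the replicate block). The median log2 fold change of the mitosis genes between KO and WT ranged from −0.14 to −0.041. Of 204 values of 17 named genes under alternatives, 189 kept their direction and 15 changed sign, none past the test. *Bub1b* was 0.013 with library totals, and *Kif2c* was −0.0038 with counts summed per symbol. Without KO replicate 1, *Plk1* was −0.10, *Bub1b* 0.12, *Pttg1* 0.20, *Kif2c* −0.15 and *Mki67* 0.061. Without KO replicate 2, *Cdc25c* was −0.063, *Mad2l1* 0.011, *Cenpa* −0.030 and *Kif23* −0.044. Without WT replicate 1, *Bub1b* was 0.037, and without WT replicate 2, *Cdc25c* was −0.011, *Cenpa* −0.060 and *Kif23* −0.0067. With each library left out in turn, these genes ranged from −0.10 to 0.35 (*Plk1*), −0.21 to 0.12 (*Bub1b*), −0.66 to 0.20 (*Pttg1*), −0.15 to 0.22 (*Kif2c*), −0.54 to 0.061 (*Mki67*), −0.063 to 0.50 (*Cdc25c*), −0.49 to 0.011 (*Mad2l1*), −0.060 to 0.12 (*Cenpa*) and −0.044 to 0.059 (*Kif23*). Of the named genes that kept their sign, *Ccnb1* was −0.60 without WT replicate 2 and −0.096 without WT replicate 1, *Birc5* was −0.053 and −0.67 in the same settings, *Cdc20* was 0.066 and 0.26 there, and *Top2a* was −0.34 without KO replicate 2 and −0.074 without KO replicate 1. The others, *Cdca8*, *Ndc80*, *Kif11* and *Anln*, stayed within 1.5 times of their reported values. Where a library was left out, the lone library of its genotype was assumed to vary like the others.

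Counts over all transcripts moved more. Between genotypes, 381 were called, against 638 with the likelihood ratio test, 740 with no filter and 109 to 1291 with a library left out (109 without WT replicate 2, 175 without WT replicate 1, 842 without KO replicate 1 and 1291 without KO replicate 2). Between passages, 320 were called, against 34 with DESeq2, 189 with the likelihood ratio test, 145 with 1 CPM in all 4 libraries, 0 with no term for genotype, and 0 to 8 with a library left out and no such term. The causes were not tested. With each library left out, 0 to 2 cytokinesis, 0 to 1 replication and 0 to 1 condensin and cohesin genes were called.

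The replicate number is also the passage, and with it as a replicate block 1092 transcripts were called between genotypes, among them 0 mitosis genes, 1 condensin or cohesin, 1 centromere or kinetochore, 2 cytokinesis and 2 replication genes. It changed no other call on these lists. Few reads were assigned to *Pttg1*, *Birc5*, *Kif2c* and the 9 mitosis genes that were not tested, all of which have several IDs.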
